A study of Mus musculus with 2 samples.

Results

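Oligodendrocyte progenitors were picked out of the brain library of a study that sorted Nestin-GFP+ (Nes-GFP+) cells from mouse tissues. A cell was taken as a progenitor from its counts of unique molecular identifiers (UMIs, 1 for each captured RNA molecule). It needed at least 2 UMIs of Pdgfra and Cspg4 together and at least 1 of Olig1 and Olig2 together, with fewer than 3 of Mog, Mag and Mobp together and at most 1 of Dcn and Col1a2 together. The rule was met by 114 of 4151 kept brain cells (2.75%, exact Clopper-Pearson 95% interval 2.27 to 3.29%), in a series of 9759 kept cells. Kept cells had more than 200 and fewer than 4000 genes and under 40% mitochondrial UMIs. The 9 genes of the rule chose the cells, so their levels are a description of the choice and not a result.

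The mice carried a transgene in which Nestin regulatory elements drive GFP, and the tissue came from adults of about 6 weeks, with no treatment. The labels give the strain as C57BL/6, whereas the methods describe wild-type CD1 or mixed CD1 and C3H animals to which the transgenic lines were bred. Whole brain and whole lung were dissociated, strongly GFP+ cells were sorted, and each tissue gave 1 droplet-based 3′ single-cell RNA library. Each library was 1 biological replicate, and how many animals went into it was not given in the sources used here. Shares of cells are shares of the sorted cells, not of the brain. With 1 library there is no replicate, so no test was made, and the 95% intervals given here cover counting error only.

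Oligodendrocyte progenitors are glial precursors that lie throughout the brain, divide in the adult and give rise to the oligodendrocytes that myelinate axons. They respond to platelet-derived growth factor through the receptor Pdgfra and carry the NG2 proteoglycan, the product of Cspg4, while the transcription factors Olig1, Olig2 and Sox10 are shared by the whole lineage. Progenitors that commit to differentiation pass through a stage with high Gpr17, a receptor that restrains maturation, before the myelin genes are turned on. Progenitors also receive synaptic input from neurons, for which they carry glutamate and GABA receptors.

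The progenitors held 551643 UMIs, with a median of 4789 UMIs per cell (458 to 11082) and 2568 genes. The other 4037 kept brain cells had a median of 4195 UMIs, and the median mitochondrial share was 4.33% in progenitors and 3.82% in the others. All levels are summed UMIs of a group of cells scaled to the total of the group and given as CPM. Since CPM is not divided by gene length, each gene is compared between cells and not with other genes. The brain library held 26221173 UMIs over 4640 barcodes. It shared 15 barcodes with the lung library, none of them a progenitor.

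Among the genes of the rule, Pdgfra (chr5:75152292-75198215 on mm10, plus strand) had 0 to 24 UMIs per progenitor with a median of 5, and was found in 98 of the 114 cells. Cspg4 (chr9:56865033-56899870) had 0 to 11 UMIs with a median of 3, in 107 cells. Both were present in 91 cells, Pdgfra alone in 7 and Cspg4 alone in 16. The bHLH factors Olig1 (chr16:91269772-91271933) and Olig2 (chr16:91225457-91228677), which lie close together on chromosome 16, had medians of 11 and 5 UMIs and highest values of 46 and 21. They were found together in 95 cells. All 5 lineage markers, Sox10 included, were present in 65 cells.

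Sox10 (chr15:79154908-79165240, minus strand) is the marker that the rule did not use. It had 0 to 12 UMIs per progenitor with a median of 2, and was found in 88 cells. Its summed level of 439 CPM (385 to 498) was close to the 421 CPM of mature oligodendrocyte-like cells, at 1.04 times (0.885 to 1.23). It was 3.48 CPM in astrocyte or quiescent stem cell-like cells, 2.94 CPM in neuroblast-like cells and 9.63 CPM in endothelial-like cells. When each cell was thinned to 2000 UMIs, 53.1% of progenitors (51 of 96, 42.7 to 63.4%) had a Sox10 UMI, against 54.2% of mature oligodendrocyte-like cells and 1.41% of endothelial-like cells, the class taken as background. Without thinning the share in progenitors was 77.2% and in endothelial-like cells 1.81%. The median depths of these 2 classes were 4789 and 3687.5 UMIs. Sox10 thus separated the progenitors from the classes outside the lineage but not from mature oligodendrocyte-like cells.

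The cells next to the threshold were examined in the same way. The 17 progenitors with exactly 2 UMIs of Pdgfra and Cspg4 had 635 CPM of Sox10, the 10 with 3 UMIs had 455 CPM and the 87 with 4 or more had 409 CPM. Just outside, 48 cells had 1 such UMI and met the rest of the rule, and their Sox10 level was 296 CPM. Gpr17 was 3371 CPM at 2 UMIs, 1026 CPM at 4 or more and 1661 CPM at 1. Cntn1, a progenitor gene, was lower near the threshold, at 1534 CPM for 4 or more, 529 CPM at 2 and 229 CPM at 1. Markers of other types were counted there as well. Vtn, a mural gene, was 93.3 CPM at 4 or more, 1784 CPM at 2 and 623 CPM at 1. At 2 UMIs, a pair of cells without Sox10, Ptprz1 or Cntn1 held 54 and 62 of the Vtn UMIs. Slc1a2, an astrocyte gene, was 617 CPM at 4 or more, 242 CPM at 2 and 2667 CPM at 1. Only 20 of the 48 cells with 1 UMI had Sox10. Of 169 kept cells outside the rule with UMIs of Sox10 and of Olig1 or Olig2, 82 were mature oligodendrocyte-like, and 66 of the other 87 had a Gpr17 UMI.

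Markers of mural cells, the pericytes and smooth muscle cells of vessels, set 5 progenitors apart. These 5 had 16 to 121 UMIs of 8 mural markers, among them Vtn and Rgs5, while no other progenitor had more than 1. None of the 5 had Sox10, 4 had no Pdgfra, and 4 had under 500 CPM of the progenitor genes described next, against at least 7561 CPM in each of the other 109 cells. Pdgfra and Cspg4 were also counted in the 188 mural-like cells, at 184 and 438 CPM. The comparisons between classes and within the progenitors were repeated without the 5 cells.

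Most markers of other cell types were low in the progenitors. Mural markers summed to 662 CPM, or 16.7 CPM without the progenitors that they set apart. The 8 endothelial markers summed to 30.8 CPM, with Pecam1, Cdh5 and Slco1a4 at 0, and the 8 microglial markers to 5.44 CPM, with C1qc, Aif1, Tyrobp, Cx3cr1 and Csf1r at 0. Fibroblast markers summed to 21.8 CPM, ependymal markers to 12.7 CPM and neuronal markers to 132 CPM, beside 108 CPM in the other cells. Neuroblast markers summed to 189 CPM against 5881 CPM in the other cells, and 6 progenitors had at least 3 UMIs of them. Astrocyte and quiescent stem cell markers had the highest of these sums, at 1037 CPM (954 to 1125), and 65 progenitors had at least 3 UMIs of these 8 genes. Their sum was 18043 CPM in the class they mark. Slc1a2, the glial glutamate transporter, was found in 80 progenitors at 546 CPM. Doublets were not removed, and their part in these values was not tested.

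The same rule was applied to the lung library. No lung barcode had an Olig1 or Olig2 UMI, so 0 of 5608 kept lung cells met the rule, which allows a share of up to 0.0535%. In the lung 1670 kept cells had at least 2 UMIs of Pdgfra and Cspg4, which are also genes of lung fibroblasts and mural cells.

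Genes known from progenitors but absent from the rule were then examined. All 22 genes of such a list with counts were higher in progenitors than in the other kept brain cells. A gene is called higher or lower here when its CPM differed at least 2-fold and its interval excluded 1, among genes with at least 20 UMIs over both groups. By that measure 1641 of 15505 genes (10.6%) were higher in progenitors and 1490 (9.61%) were lower. The median log2 ratio was 3.43 for the list and -0.04 for all 15505 genes. The list summed to 15305 CPM in progenitors, 15595 CPM without the 5 cells with mural markers, and 2180 CPM in the other cells. These genes come from the same cells that the rule picked by their partners, so the counts describe the class and test nothing.

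Cspg5, a transmembrane chondroitin sulphate proteoglycan, had 0 to 54 UMIs per progenitor with a median of 10, and was found in 99 cells. It reached 2884 CPM in progenitors, 1580 CPM in astrocyte or quiescent stem cell-like cells and only 30.9 CPM in mature oligodendrocyte-like cells. Ptprz1, a receptor phosphatase that binds matrix ligands, had 0 to 33 UMIs with a median of 12, in 106 cells, and 2674 CPM. C1ql1, a secreted protein of the C1q family, had 0 to 27 UMIs with a median of 4, in 97 cells. Its level was 1234 CPM, 46.0 times (40.9 to 51.7) that of the other cells, and 109 times when the 169 lineage cells that missed the rule were left out of them. The plot of the 22 genes by class shows which of them the neighbouring classes shared. Gpr37l1, a receptor of glia, was higher in astrocyte or quiescent stem cell-like cells (1287 CPM) than in progenitors (738 CPM), and Opcml, a cell adhesion protein, was 1175 CPM in mature oligodendrocyte-like cells and 934 CPM in progenitors.

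**Figure D1:**
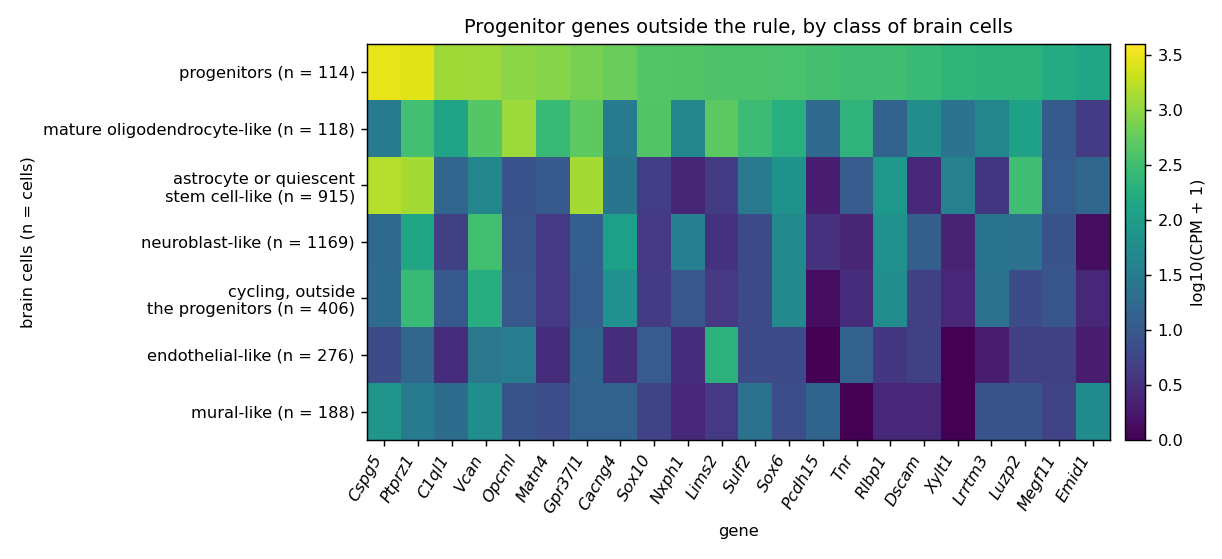
Levels of 22 progenitor genes that the rule did not use (columns, in order of their level in progenitors) in 7 classes of brain cells (rows, with the number of cells), as log10(CPM + 1) of summed counts. Progenitors have the highest level of each gene except Opcml and Lims2, highest in mature oligodendrocyte-like cells, and Gpr37l1 and Luzp2, highest in astrocyte or quiescent stem cell-like cells.

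The 25 genes that stood out most among those higher in progenitors included 3 genes of the rule (Pdgfra, Cspg4 and Olig1). C1ql2 (chr1:120340582-120343174) had the highest ratio, with 66 UMIs in 40 of the 114 progenitors and 5 UMIs in all 4037 other cells. Its level was 120 CPM against 0.264 CPM (454 times, or 234 times without the progenitors that carry markers of other types and 258 times with the rule on thinned cells). C1ql3, another member of that family of secreted synaptic proteins, was 25.3 times higher. Adhesion molecules were among the 25 genes, with Cntn1 (1376 against 32.8 CPM, 41.9 times), a contactin, and Pcdh15, a protocadherin (343 against 6.17 CPM, 55.5 times). The ratio of Pcdh15 was 34.6 with the mean over cells of the CPM of each, and 99.4 with the rule on thinned cells. Cntn1 (chr15:92051165-92341967) had 0 to 24 UMIs per progenitor with a median of 6, in 97 cells. Its ratio was 68.9 without the lineage cells that missed the rule and 19.2 when barcodes with 4000 genes or more were kept. The matrix protein gene Matn4 was 27.4 times higher, the integrin subunit Itga9 42.7 times and the membrane metalloproteinase Mmp15 22.8 times.

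Ion channel and receptor genes were a further group among the 25. Kcnd2, a pore subunit of A-type potassium channels, was 39.9 times higher, Grm5, a metabotropic glutamate receptor, 41.0 times, and Grin3a, an NMDA receptor subunit, 22.4 times. Gria3, an AMPA receptor subunit, was at 323 against 12.4 CPM. Ccnd1, the cyclin D1 gene, was 26.5 times higher. Pou3f1, a POU factor of glial cells, was 23.7 times higher and the homeobox gene Meox1 30.5 times. The remaining genes were Tmem255b, Ifitm10, Galnt13, Dcaf12l1, Susd5, Fam89a and Ppapdc1a, at 25.5 to 156 times.

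The 15 genes that stood out among those lower in progenitors were mostly genes of neuroblasts. Stmn2 and Tubb3, which act on neuronal microtubules, were 10.9 against 1359 CPM and 23.6 against 1153 CPM. Of the homeobox and zinc finger genes of forebrain interneurons, Dlx1, Dlx2, Sp8 and Sp9 had 1 to 8 UMIs in all progenitors, and Dlx5 had 0 (at least 28.4-fold lower). Cldn5, a tight junction gene of endothelial cells, was 7.25 against 667 CPM, and Gja1, a gap junction gene of astrocytes, 3.63 against 361 CPM. Igfbpl1, Dlx6os1, Tiam2, Ezr and Ptgds were also among the 15. The low levels depended on the upper limit of genes per cell. When barcodes with 4000 genes or more were kept, the ratio of progenitors to other cells went from 0.0109 to 0.181 for Cldn5, from 0.00748 to 0.0629 for Sp8 and from 0.00800 to 0.0547 for Stmn2, all still lower.

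**Figure D2:**
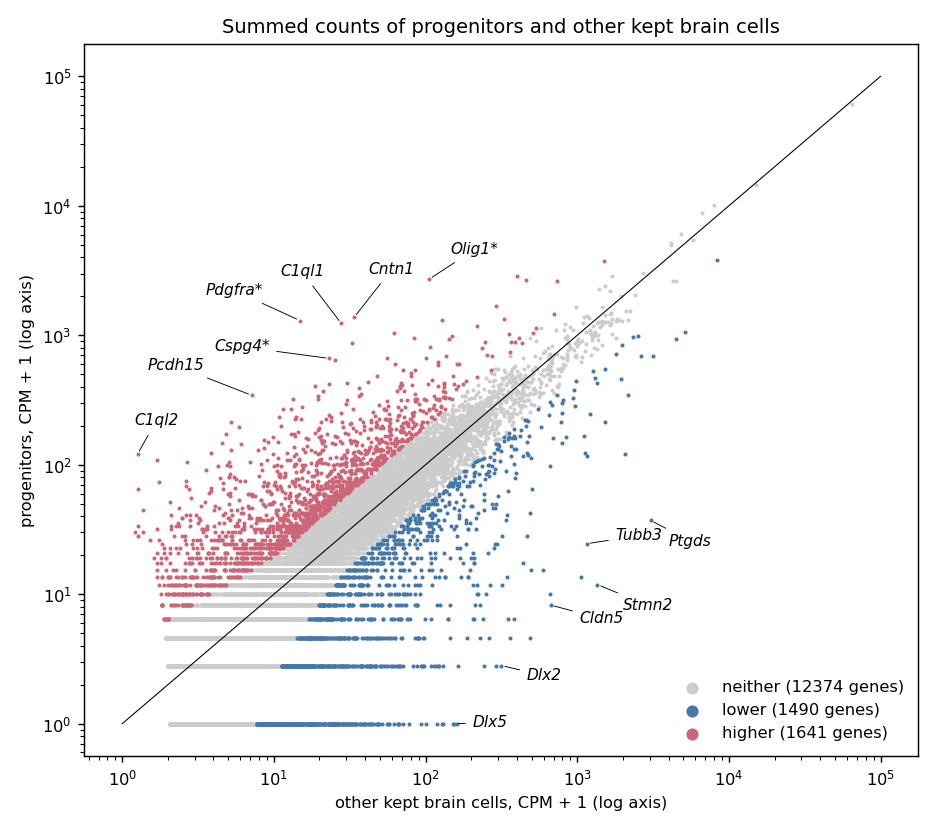
Each point is 1 of 15505 genes, with its summed level in 4037 other kept brain cells (x axis) and in 114 progenitors (y axis), both as CPM + 1 on log axes, and the line marks equal levels. Higher genes (1641) are red, lower genes (1490) blue, and the genes marked with a star chose the cells.

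The split between higher and lower genes depended on the scaling. When the 2 groups were scaled by the median ratio of well counted genes, a shift of 0.19 on the log2 scale, 1304 genes were higher and 1855 lower, so that 41.3% of the called genes were higher in place of 52.4%. Of the 22 progenitor genes, 20 were called higher and none lower under that scaling.

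Receptors and transporters of glutamate and GABA were described as a list. Of 38 such genes, 21 were higher and 8 lower in progenitors than in the other cells, with a median log2 ratio of 1.16, and 18 were higher under scaling by the median ratio. AMPA receptor genes Gria2 (950 against 414 CPM), Gria3 and Gria4 (172 against 21.2 CPM) were higher, as was Cacng4, an auxiliary subunit of these receptors (595 against 62.2 CPM). Gria2 had 0 to 12 UMIs per cell with a median of 4, in 104 progenitors. The lower genes were led by the astrocytic transporters Slc1a2 and Slc1a3, at 546 against 1535 CPM and 212 against 785 CPM.

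Ion channels showed no lower gene. Of 30, 18 were higher, with a median log2 ratio of 1.43. Kcnip3, which binds A-type potassium channels, was 348 against 36.7 CPM, and Kcnd2 was 196 against 4.90 CPM with 0 UMIs in mature oligodendrocyte-like cells. Sodium channel genes Scn1a (97.9 against 3.90 CPM), Scn2a1 (56.2 against 6.54 CPM) and Scn3a (140 against 46.2 CPM) were also higher.

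Matrix and adhesion genes divided along the same lines. Of 39, 23 were higher and 7 lower (median log2 ratio 1.33). The proteoglycans Vcan (1176 against 216 CPM) and Bcan (689 against 274 CPM), the matrix glycoprotein Tnr (315 against 29.4 CPM) and the synaptic adhesion gene Nlgn3 (406 against 66.4 CPM) were higher. Hapln1, a link protein, was lower, at 12.7 against 35.1 CPM, and the laminin receptor Itga6 had 1 UMI in progenitors.

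Signalling genes moved in both directions. A list of growth factor receptors, receptors of other signals and ligands was counted without Pdgfra. Of its 26 genes, 5 were higher (Gpr17, Ednrb, Adora1, Tnfrsf21 and Erbb3) and 10 lower. Egfr, the receptor of epidermal growth factor, was 5.44 against 59.1 CPM. Ednrb, an endothelin receptor, was 482 against 151 CPM. Of 38 Notch, Wnt and BMP pathway genes 7 were higher, among them the Notch ligands Dll3, Dll1 and Jag1 and the BMP antagonists Nog and Chrd. Another 10 were lower, among them the BMP targets Id1, Id3 and Id4. Id4 was 9.06 against 221 CPM. Of 33 axon guidance genes 12 were higher and 9 lower, with Sema3d (179 against 13.5 CPM), Sema5b (143 against 24.1 CPM) and Lingo1 (9.19 times) among those higher.

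**Figure D3:**
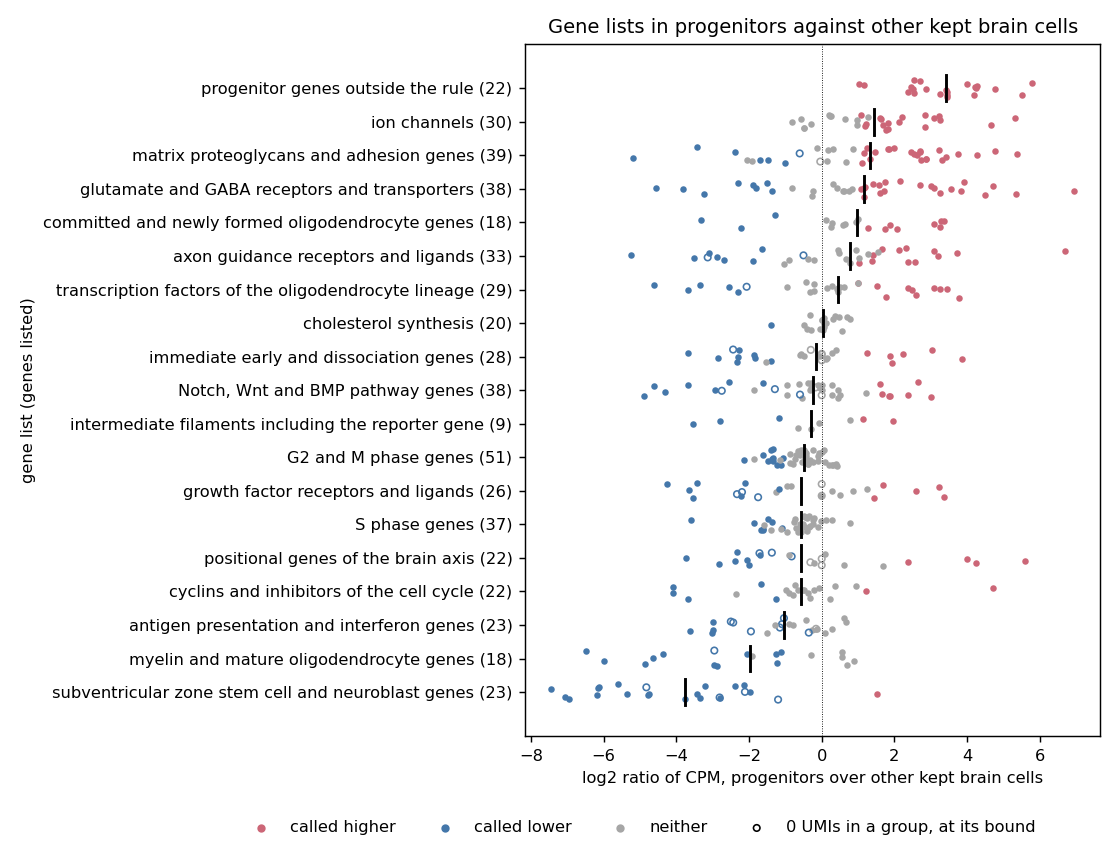
Log2 ratio of CPM between progenitors and other kept brain cells for the genes of 19 lists (rows, with the number of genes listed). Each point is a gene, black bars are medians, open points are genes with 0 UMIs in a group set at their bound, and genes that chose the cells are left out. Progenitor genes, ion channels, matrix genes and glutamate and GABA receptors and transporters have medians above 1, and the list of stem cell and neuroblast genes lies at the other end.

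Transcription factors of the lineage were examined next. Of 29 outside the rule, 10 were higher and 6 lower. Sox8 (411 against 68.6 CPM), Sox6 (372 against 71.0 CPM) and Nkx2-2 (167 against 19.5 CPM) were higher. Sox9, a factor of astrocytes and stem cells, was 16.3 against 209 CPM.

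Genes of the subventricular zone, the stem cell niche of the adult forebrain, had the lowest median of the 19 lists plotted, which leave out the marker lists of other cell types. Of 23 genes 22 were lower and 1 was higher. Dcx, a microtubule protein of migrating neuroblasts, was still found in 45 progenitors, with 0 to 3 UMIs per cell and 112 CPM against 492 CPM in the other cells. After thinning, 13.5% of progenitors had a Dcx UMI against 0.939% of endothelial-like cells (39.5% and 3.26% without thinning). Nes (chr3:87971078-87980451), the gene whose regulatory elements drive the reporter, was 29.0 CPM (16.6 to 47.1) in progenitors against 65.7 CPM in the other cells. It had 0 to 3 UMIs per progenitor and was found in 12 of them. After thinning, 6.25% of progenitors had a Nes UMI, 6.12% of astrocyte or quiescent stem cell-like cells, 6.47% of neuroblast-like cells and 47.4% of endothelial-like cells. Without thinning these shares were 10.5%, 12.3%, 14.4% and 58.0%. Vim, another intermediate filament gene, was 41.7 against 490 CPM.

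Lists outside these pathways were counted too. None of 20 cholesterol synthesis genes was higher and 1 was lower (median log2 ratio 0.04, or -0.15 under scaling by the median ratio). No antigen presentation gene of 23 was higher and 11 were lower. Of 28 immediate early genes, which respond to tissue dissociation, 6 were higher (among them Ier3, Myc, Nr4a1 and Fosb) and 9 lower (among them Egr1).

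Progenitors were compared with mature oligodendrocyte-like cells, the 118 cells with at least 3 UMIs of Mog, Mag and Mobp. Depth differed, with a median of 9434 UMIs in the mature class. Of 8509 genes, 1627 (19.1%) were higher in progenitors and 754 (8.86%) lower, or 1157 and 958 when scaled by the median ratio, which takes the share of higher calls from 68.3 to 54.7%. All 18 myelin genes outside the rule were lower. Mbp, a main protein of myelin, was 217 CPM in progenitors and 5331 CPM in mature cells (24.5 times lower), and Cnp, an enzyme of myelin, 551 against 4931 CPM (8.95 times). Mal had 3 UMIs in progenitors against 5604 CPM in mature cells, where it was found in 33.9% of cells. Its ratio went from 0.000970 to 0.00580 with the mean over cells. Ermn and Nkx6-2, found in 28.8% and 46.6% of mature cells, had 0 UMIs in progenitors (at least 127-fold and 61.7-fold lower). Of 20 cholesterol synthesis genes 15 were lower in progenitors, with Hmgcs1 at 237 against 749 CPM, and none was higher. Markers of other cell types differed as well. Of those with enough UMIs, 7 of 8 neuroblast and all 6 microglial markers were lower in progenitors, and all 5 mural and all 4 astrocyte markers were higher. Their part in the comparison was not tested.

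Genes of the committed stage were mostly lower than in mature cells, 11 of 18 with none higher, but Gpr17 (1318 against 1036 CPM), Neu4, a sialidase (341 against 290 CPM), Itpr2 and Nkx2-2 were within 2-fold. Of the 22 progenitor genes 15 were higher in progenitors. The genes that stood out most were Pdgfra (244 times), Cspg5 (93.4 times), Ccnd1 (100 times, 45.7 to 275), Kcnip3 (109 times, 36.7 to 533, from 3 UMIs in mature cells, and 23.1 times with the mean over cells), Kcnd2 (0 UMIs in mature cells, at least 61.3-fold), and Id2, an inhibitor of differentiation (98.7 times, 26.7 to 825). Spry4, C1ql2 and Scn1a had 0 UMIs in mature cells. Hes5, a Notch target, was 129 against 3.20 CPM.

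Against the 915 astrocyte or quiescent stem cell-like cells, chosen by Slc1a2, Aqp4 and Gja1, 1801 of 12270 genes (14.7%) were higher in progenitors and 1725 (14.1%) lower. Scaling by the median ratio, a shift of 0.44 on the log2 scale, gave 1054 higher and 2553 lower, or 29.2% of calls higher in place of 51.1%. The genes that stood out as higher were Pcdh15, Nxph1, Tmem255b, Pdgfra, Brinp1, Cspg4, Gpr17, Pllp, Opcml, Itga9, 3110035E14Rik and Dscam, at 134 times or more. Gpr17 was 1318 against 9.29 CPM (142 times). Of the progenitor genes 19 of 22 were higher, and Cspg5 (1.83 times), Gpr37l1 and Luzp2 were not. Under scaling by the median ratio 18 were higher and 1 lower. Genes lower in progenitors included Mlc1, Cldn10, Gstm1, Chchd10 and Fxyd1, and Hes5 at 129 against 650 CPM. All 8 ependymal and 7 of 8 neuroblast markers were also lower in progenitors, and 5 of 7 mural markers were higher. Their part in the comparison was not tested. Of 34 Notch, Wnt and BMP pathway genes 17 were lower and 5 higher.

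Against the 1169 neuroblast-like cells, chosen by Dcx, 2404 of 11401 genes (21.1%) were higher in progenitors and 1146 (10.1%) lower. All 22 progenitor genes were higher, with C1ql1 at 1234 against 3.86 CPM and Matn4 at 876 against 2.94 CPM. The genes lower in progenitors were again Stmn2, Igfbpl1, Tubb3, the Dlx genes, Sp8 and Sp9, joined by Robo2, a receptor for Slit guidance cues (5.44 against 438 CPM). Sox4 was 245 against 2338 CPM and Sox11 19.9 against 401 CPM. Markers of other cell types differed here too, with all 5 mural and 6 of 8 astrocyte markers higher in progenitors and 3 of 6 microglial and 3 of 5 neuronal markers lower. Their part in the comparison was not tested. Without the 5 cells with mural markers, the counts of higher and lower genes were 1617 and 761 against mature, 1776 and 1756 against astrocyte or quiescent stem cell-like and 2368 and 1165 against neuroblast-like cells.

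Cycling progenitors were split off by at least 2 UMIs of Mki67, a protein of dividing nuclei, and Top2a, the topoisomerase of mitosis. There were 15 of 114 (13.2%, 7.56 to 20.8%), against 11.6% of the other kept brain cells. At 2000 UMIs per cell the shares were 10.4% (5.11 to 18.3%) and 9.62%, so that no difference from the other cells was detectable at this number of cells. The share at that depth was 3.26% in astrocyte or quiescent stem cell-like, 2.08% in mature oligodendrocyte-like and 0.939% in endothelial-like cells. Mki67 had 0 to 21 UMIs per cycling progenitor with a median of 6, and 3 UMIs in the 99 other progenitors together. G2 and M phase genes held more UMIs than S phase genes in 12 of the 15 cells, in 72 of the 99 that were not cycling and in 310 of 406 cycling cells outside the progenitors. These 406 are the cycling cells among the others, 467 in all, that met no class rule except that Dcx was allowed.

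Within the progenitors, 250 of 5605 genes (4.46%) were higher in the 15 cycling cells than in the other 99, and 227 (4.05%) lower, or 176 and 303 when scaled by the median ratio (36.7% of calls higher in place of 52.4%). Without the 5 cells with mural markers, all among the 99, the counts were 237 and 206. All 5 mural markers listed were lower in cycling cells while those cells were kept. The cycling cells were deeper, with a median of 7010 UMIs against 4319. Of 28 G2 and M phase genes outside the split 27 were higher, and so were 11 of 15 S phase genes and none was lower. Cdca8, of the chromosomal passenger complex, was 656 against 2.22 CPM, Cenpf, a kinetochore protein, 875 against 17.7 CPM, Hist1h1b, a linker histone, 527 against 4.43 CPM, and Rrm2, which makes deoxynucleotides, 249 against 4.43 CPM. Among inhibitors of the cycle, Cdkn2c was higher, at 298 against 44.3 CPM (6.73 times, 3.70 to 12.5).

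Genes of the committed stage were lower in cycling progenitors against all 99 other progenitors, 10 of 14 listed with none higher, but most of these calls rested on 17 of the 99 cells. Gpr17 was 547 against 1490 CPM (2.72 times lower, 2.07 to 3.65), Bcas1, an early marker of myelinating cells, 308 against 900 CPM, Fyn, a kinase that acts in myelination, 199 against 1031 CPM, and Bmp4, a ligand, 29.8 against 251 CPM. The tetraspanin gene Cd9 was 1243 against 2942 CPM. Pdgfra (1243 against 1312 CPM) and Sox10 (368 against 454 CPM) differed by less than 2-fold. Of the 22 progenitor genes 21 were neither higher nor lower, and Tnr was lower, with 3 lower under scaling by the median ratio. The group of 99 includes the 53 cells described below as having more Gpr17, Bmp4 and Enpp6.

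The 17 cells, described below, were picked by their high committed-stage genes after the values were seen, so the counts without them are a description. They held 411 of the 672 Gpr17 UMIs of the 99 cells, 361 of 465 of Fyn, 98 of 113 of Bmp4 and 723 of 1327 of Cd9. Against the other 82 cells, 1 of 11 committed-stage genes, Mpzl1, was lower in cycling progenitors and none higher. Gpr17 was 547 against 767 CPM (0.713 times, 0.523 to 0.957), Bcas1 308 against 332 CPM, Fyn 199 against 305 CPM and Cd9 1243 against 1774 CPM. None of them was a 2-fold difference. Cnp, an enzyme of myelin, was still lower, at 109 against 229 CPM (0.477 times). The cell cycle genes kept their direction, with 26 of 27 G2 and M phase and 9 of 12 S phase genes higher, and over all genes 233 of 4762 were higher and 162 lower.

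The 15 cycling progenitors were also compared with the 406 cycling cells outside the progenitors defined above, which had a median of 8149 UMIs. Of 9792 genes, 1090 (11.1%) were higher and 546 (5.58%) lower, or 1315 and 390 when scaled by the median ratio (77.1% of calls higher in place of 66.6%). Against all 467 cycling cells outside, the counts were 1106 and 522. All 22 progenitor genes were higher, with Cntn1 at 1621 against 5.49 CPM, and Tmem100 had 0 UMIs in the 406 cells. Lower genes included those of neuroblasts, with Stmn2, Dlx1, Dlx2 and Insm1 at 0 in cycling progenitors. Genes of the cycle itself were also among them. Of 37 S phase genes 9 were lower (median log2 ratio -0.91) and of 49 G2 and M phase genes outside the split 11 were lower (median -0.55), with none higher in either list. Under scaling by the median ratio 7 and 10 were lower. Vim was 9.94 against 683 CPM. Of the markers of other cell types with enough UMIs, all 8 of neuroblasts were lower in cycling progenitors. Higher were 3 of 7 astrocyte markers and the 1 marker of mature oligodendrocytes. Their part in the comparison was not tested.

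D-type cyclins link growth signals to entry into the cycle, and the progenitors differed from the other classes in which of them they carried. Ccnd1 (chr7:144929931-144939925, minus strand) had 0 to 24 UMIs per progenitor with a median of 2, in 72 cells, and 642 CPM (577 to 712). It was 41.3 CPM in astrocyte or quiescent stem cell-like, 9.75 CPM in neuroblast-like and 6.39 CPM in mature oligodendrocyte-like cells. Ccnd2 went the other way, at 120 CPM (92.5 to 152) in progenitors, 659 CPM in astrocyte or quiescent stem cell-like cells and 3350 CPM in neuroblast-like cells. In mature oligodendrocyte-like cells it was 178 CPM. Ccnd3 was 29.0 CPM in progenitors and 12.5 CPM in the other kept brain cells.

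The contrast was present among dividing cells. Cycling progenitors had 1114 CPM of Ccnd1 and 189 CPM of Ccnd2, and the 406 cycling cells outside had 18.7 and 3888 CPM. All 467 had 32.2 and 3728 CPM, and the 52 cycling astrocyte or quiescent stem cell-like cells had 117 (89.4 to 152) and 2845 CPM. Against the 406 cells, Ccnd1 was 59.4 times (42.9 to 83.1) higher and Ccnd2 20.6 times (13.2 to 34.2) lower in the cycling progenitors. At 2000 UMIs per cell, 48 of 96 progenitors had a Ccnd1 UMI (39.6 to 60.4%), against 3.92% of the 406 cycling cells outside and 10.3% of endothelial-like cells (63.2%, 8.62% and 13.8% without thinning). Ccnd1 was in 14 of the 15 cycling progenitors, with a median of 7 UMIs.

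**Figure D4:**
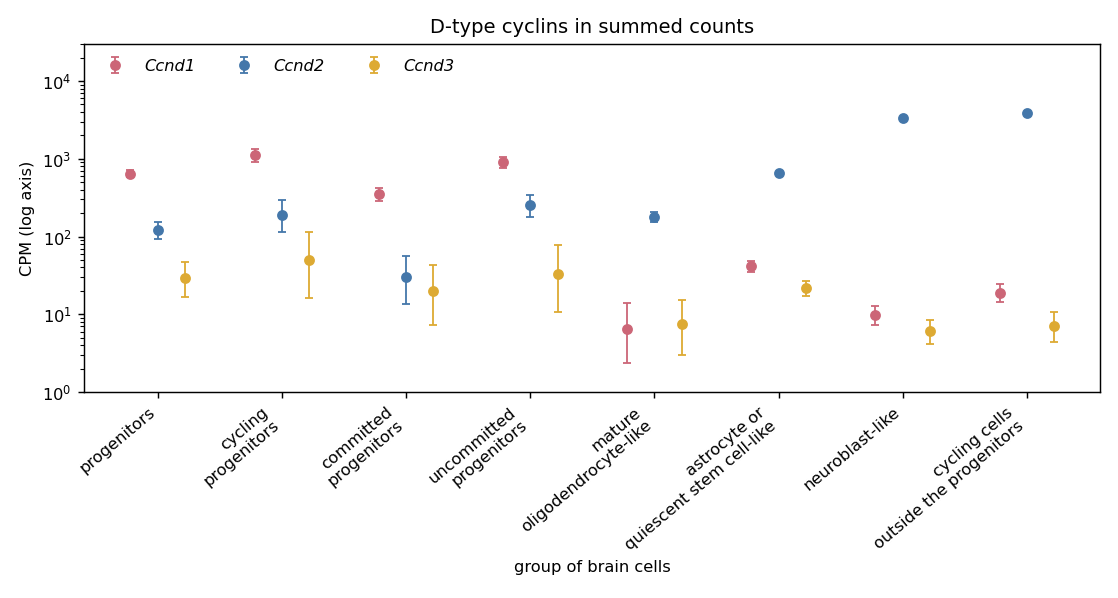
Summed levels of Ccnd1, Ccnd2 and Ccnd3 (CPM, log axis) in 8 groups of brain cells, with exact 95% Poisson intervals as bars. Ccnd1 exceeds 350 CPM in each group of progenitors and is below 50 CPM in the 4 other classes, while Ccnd2 is above 3000 CPM in neuroblast-like cells and in cycling cells outside the progenitors.

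The 99 progenitors that were not cycling were split by Gpr17, Bmp4 and Enpp6 into 53 with at least 3 UMIs of these genes, called committed here as a name for the count alone, and 46 with fewer. The committed cells were deeper, with a median of 6199 UMIs against 2697.5, and a threshold on UMIs favours deep cells. They also had more genes, with a median of 2951 against 1461.5, and a lower median mitochondrial share, 4.09% against 5.97%. All 5 cells with mural markers fell among the 46. Of 4784 genes, 180 (3.76%) were higher in committed cells and 155 (3.24%) lower, or 141 and 231 when scaled by the median ratio (37.9% of calls higher in place of 53.7%). Taking the mean over cells gave 445 and 237 (65.2%).

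Genes of the committed stage and of myelin were higher in the committed cells, 6 of 11 and 4 of 6 outside the split, with none lower, but these calls rested on 17 of the 53 cells, which are described with the spread among committed cells. Fyn was 1417 against 259 CPM, Bcas1 1221 against 259 CPM and Cnp 885 against 179 CPM. The transcription factor genes Sox8 (569 against 126 CPM), Tcf7l2 (290 against 106 CPM) and Nkx2-2 (226 against 86.4 CPM) were higher. So was Cdkn1c, an inhibitor of the cycle, at 130 against 13.3 CPM. The 17 cells held 46 of 103 Tcf7l2, 44 of 81 Nkx2-2 and 26 of 41 Cdkn1c UMIs of the progenitors that were not cycling. Without them and the cells with mural markers, Sox8 was still called higher, but Tcf7l2, Nkx2-2 and Cdkn1c were not. In the other direction Ccnd1 was 353 against 903 CPM (2.56 times lower, 1.97 to 3.33), Ccnd2 29.9 against 252 CPM, and Hes5 86.5 against 239 CPM. The immediate early gene Fos was 63.2 against 332 CPM, but it was found in 12 of 53 committed and 8 of 46 uncommitted cells, with up to 28 UMIs in 1 cell. Its ratio went from 0.190 to 0.577 when 2 UMIs of Gpr17, Bmp4 and Enpp6 sufficed, which is not a 2-fold difference. Pdgfra (1081 against 1774 CPM), Cspg4 and Sox10 were within 2-fold, and of the 22 progenitor genes only Lims2 was higher and Emid1 lower.

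Several lower calls rested on the 5 cells with mural markers. Vtn was 3.33 against 1289 CPM, a ratio of 0.00258 with those cells and 0.230 without them, and Rgs5 and Igfbp7, further mural genes, were lower with them as well. Pdgfrb, the receptor of mural cells, was called lower only while they were kept. Without the 5 cells 166 genes were higher and 145 lower.

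The committed cells were not uniform. A sum of 15 committed-stage and myelin genes outside the split ranged from 796 to 18441 CPM per committed cell with a median of 3159 CPM, and from 0 to 4399 CPM in uncommitted cells. The groups overlapped, but 17 of the 53 lay above every uncommitted cell. The bound between the 17 and the other 36 was drawn after the values were seen, and it used these 15 genes, so what follows for them is a description.

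The median depths of the 17 and the 36 were close, at 6548 and 5989.5 UMIs. In the 17 cells Bcas1 was 2649 CPM, Fyn 3263 CPM and Cnp 1944 CPM, against 390, 342 and 269 CPM in the 36 and 259, 259 and 179 CPM in uncommitted cells. Bmp4 was 886 CPM (719 to 1080) in the 17, 73.7 CPM (40.3 to 124) in the 36 and 6.64 CPM in uncommitted cells. Enpp6, an enzyme of newly formed oligodendrocytes, had 37 of its 39 UMIs in the 17 cells.

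Genes outside those sums differed as well. Pdgfra was 253 CPM (168 to 366) in the 17, found in 6 of them, and 1564 CPM (1391 to 1752) in the 36, found in all. Cspg5 was 416 against 3712 CPM, Ptprz1 1564 against 3296 CPM and Ccnd1 145 against 474 CPM, while Sox10 was 551 (422 to 708) against 432 CPM (343 to 536), with overlapping intervals. The 22 progenitor genes summed to a median of 11728 CPM in the 17, 18237 CPM in the 36 and 17310 CPM in the 41 uncommitted cells without mural markers. The other 36 committed cells, from which those with the highest sums had thus been taken out, were compared with the 41 uncommitted cells without mural markers. None of 9 committed-stage, 5 myelin and 22 progenitor genes was higher or lower between them outside the genes of the split. Few genes were called at all, 65 of 3641 higher and 82 lower, so the lists do not stand apart from all genes. Sox8 was still higher in the 36, at 505 against 130 CPM (3.88 times, 2.33 to 6.82), while Ccnd1 was lower, at 474 against 985 CPM (0.481 times, 0.364 to 0.633), as was Ccnd2, at 36.9 against 268 CPM. Bcas1 (390 against 282 CPM), Fyn (342 against 275 CPM) and Cnp (269 against 181 CPM) were neither. The same held for Tcf7l2 (216 against 116 CPM), Nkx2-2 (126 against 94.1 CPM) and Hes5 (132 against 261 CPM). Cdkn1c, with 13 against 2 UMIs, had too few to be listed. The plot of single cells shows the 17 as a tail of cells with high committed-stage genes and a lower sum of progenitor genes.

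**Figure D5:**
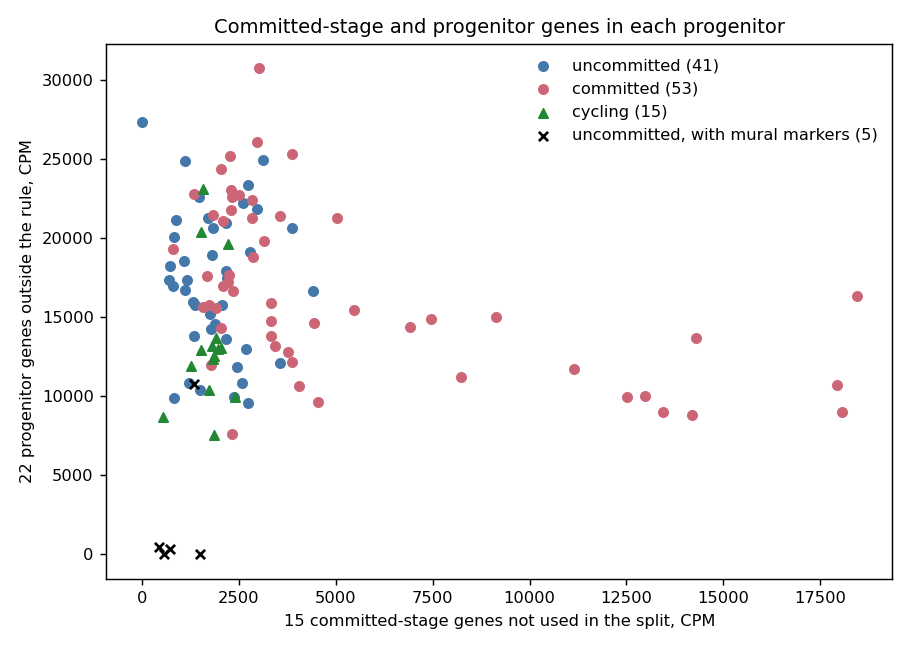
Each of the 114 progenitors is placed by the summed level of 15 committed-stage and myelin genes not used in the split (x axis) and of 22 progenitor genes outside the rule (y axis), both in CPM. A tail of committed cells reaches 18441 CPM on the x axis, and 4 of the 5 cells with mural markers lie near 0 on the y axis.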

How the data were processed

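Per the labels and methods, the authors demultiplexed the reads with bcl2fastq (2.19.1.403), processed barcodes and UMIs with UMI-tools (1.0.0 in the submitters' processing notes), aligned to mm10 with STAR (2.7.1a) and assigned genes with featureCounts (1.6.4, Subread). The deposited values are raw UMI counts per gene and barcode, with no normalization. The annotation version and barcode selection were not given in the sources used here, and the deposited tables hold barcodes outside the filter in the methods. Gene positions are from GENCODE on the same assembly.

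The progenitor rule, the gene lists, the class rules and the alternatives were chosen with earlier results of these data known. Cells were kept with more than 200 and fewer than 4000 genes and under 40% mitochondrial UMIs. Doublets were kept, and no caller was run. The other classes were mature oligodendrocyte-like (Mog, Mag and Mobp at least 3 UMIs), astrocyte or quiescent stem cell-like (Slc1a2, Aqp4 and Gja1 at least 5), neuroblast-like (Dcx at least 3, Mki67 and Top2a under 2), endothelial-like (Cldn5 and Flt1 at least 3) and mural-like (Vtn, Rgs5 and Kcnj8 at least 5), each meeting no other class rule, and 167 cells met more than 1. Cycling cells outside the progenitors had Mki67 and Top2a at least 2 and met no class rule, with Dcx allowed. The names rest on these few genes and not on clusters.

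Counts were summed over the cells of a group and scaled to CPM. Ratios of CPM have exact 95% conditional binomial intervals, single levels exact Poisson and shares exact Clopper-Pearson intervals. No test was made, because each group is 1 library and cells are not replicates. A fold against 0 UMIs used a floor of 3 counts over the group. Shares of cells were compared after thinning each cell to 2000 UMIs without replacement and leaving out shallower cells. Of 597 list symbols, 571 had counts as such, 2 under another symbol and 24 had none.

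Genes named for a comparison had at least 50 UMIs in the higher group and were found in at least 10% of its cells. They were the 25 with the highest lower limit of the ratio and the 15 with the lowest upper limit in the main comparison, and 12 in each direction in the others, of which the text names part. Mitochondrial, ribosomal protein and Gm-numbered genes were left out. Genes of the lists named beside their counts are examples picked after their values were seen. The ratio and its interval were run on simulated counts with counting error only, the error that the interval assumes. Differences between cells were not simulated, so the run checks the calculation alone. Python 3.11.15 with numpy 2.4.6, pandas 2.3.3, scipy 1.17.1 and matplotlib 3.10.9 was used. Alternatives covered the filters, the thresholds, the scaling, the lowest UMI count, the thinning depth and the cells with mural markers. Some genes of the named sets are not reported here.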

Additional observations from a re-analysis of the deposited data

Results flagged for a closer look

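Among the 418 brain barcodes with 4000 genes or more, which the filter left out, 11 met the progenitor rule, so that a signal appears in data the comparisons did not use. They had a median of 11470 UMIs (9342 to 17098), and 3 were cycling. Pdgfra was 501 CPM (386 to 639) in them against 1300 CPM in the 114 progenitors, and Cntn1 782 against 1376 CPM. Gpr17 (1440 CPM) and Ccnd1 (602 CPM) were closer to the 1318 and 642 CPM of the progenitors. Of the 11 barcodes, 5 had at least 3 UMIs of the markers of another cell type, 4 of them of neuroblasts. How many hold more than 1 cell was not tested.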

How the results depend on the processing

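The counts of genes, the number of progenitors and the shares were recomputed under the alternatives that apply to each, in 114 comparisons with the reported value. In 95 the value stayed close and in 19 it moved. A count of genes was taken as close when within 1.5 times, and a share when inside the interval of the reported one. Reversal was not defined for these values, and a count can stay close while the majority of calls turns. The majority of calls turned from higher to lower under scaling by the median ratio in 4 comparisons of gene counts, as given with them. It also turned with a minimum of 100 UMIs against the other kept cells (1264 higher, 1490 lower) and for cycling against other progenitors (26, 54). For committed cells it turned with CPM outside mitochondrial genes (166, 174), a minimum of 1 UMI (228, 358) and 5 UMIs of the splitting genes (205, 207). It turned there too without the 17 cells that lay above every uncommitted cell (99, 100). No paired analysis was possible because each group is 1 library. Stricter thresholds (Pdgfra and Cspg4 at least 3, Olig1 and Olig2 at least 2) gave 90 progenitors. The cycling share was 21.1% with Mki67 and Top2a at least 1 and 6.54% at 1000 UMIs per cell. Scaling by the median ratio gave 1054 genes higher than in astrocyte or quiescent stem cell-like cells. For cycling progenitors against the others, a minimum of 1 UMI gave 519 higher genes and a minimum of 100 UMIs gave 26 higher and 54 lower. For committed cells, a mean over cells gave 445 higher and 237 lower, a minimum of 1 UMI gave 358 lower, and a minimum of 100 UMIs gave 37 higher and 7 lower. Shares with Sox10 were 30.8% at 1000 UMIs and 77.2% without thinning, with Ccnd1 36.4% and 63.2%, and with Gpr17 50.5% at 1000 UMIs. No gene named here for the comparisons changed direction. Without the 169 lineage cells that missed the rule, among the other cells, the ratios moved for 12 of 38 named genes by over 1.5 times, for example Matn4 from 27.4 to 113, and keeping barcodes with 4000 genes or more moved 17, with the most change in Cldn5, from 0.0109 to 0.181. The committed rule on thinned cells, chosen after seeing the data, gave 208 higher and 181 lower genes. Without the 17 committed cells that lay above every uncommitted cell, also chosen after seeing the data, 99 were higher and 100 lower. The number of cells limits the comparisons of the 15 cycling progenitors, where 1 UMI is 9.94 CPM, and of the 46 uncommitted cells, where it is 6.64 CPM. Without the 5 cells with mural markers, Rgs5 had 0 UMIs in both committed and uncommitted cells and so no ratio.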
